A study of Mus musculus with 36 samples.

Results

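Mitochondria import most of their proteins unfolded, and a small set of nuclear genes supplies the chaperones that fold them and the proteases that degrade the ones that fail. The genes described here are 10 such members, Hspd1, Hspe1, Hspa9, Trap1, Lonp1, Clpp, Clpx, Yme1l1, Afg3l2 and Oma1, taken by gene symbol from a table of 25626 genes. All 10 were among the 16275 genes that passed the filter on low values. They were measured by RNA-seq of 36 whole hearts, 6 in each of 6 groups. The stated purpose of the study was to find routes by which mitochondrial reactive oxygen species could worsen cardiomyopathy in cSirt4-Tg mice.

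The cSirt4-Tg-TAC-MQ group carried the cSirt4-Tg genotype, had transverse aortic constriction (TAC, a narrowing of the aorta that loads the left ventricle) and received MitoQ, an antioxidant that accumulates in mitochondria. The cSirt4-Tg-TAC group had the same genotype and TAC with vehicle, and the cSirt4-Tg-Sham group had sham surgery with vehicle. The Con-TAC-MQ, Con-TAC and Con-Sham groups had the Control genotype with TAC and MitoQ, TAC and vehicle, and sham surgery and vehicle. The sources used here do not give age, sex, the promoter of the transgene, the time after surgery or the dose of MitoQ. Sirt4 itself, a mitochondrial sirtuin, ranged from 313 to 473 normalized read counts in cSirt4-Tg-TAC and from 253 to 385 in Con-TAC (log2 difference 0.09, limma adjusted p = 0.672), and it was not called in the sham or MitoQ pairs either (log2 differences -0.11 and -0.02, limma adjusted p = 0.739 and 1.00). The genotype names below are therefore those of the labels.

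As background, Hspd1 (HSP60) and Hspe1 (HSP10) form the barrel and lid of the matrix chaperonin, and Hspa9 (mortalin) is the matrix HSP70 that pulls precursors through the inner membrane and helps them fold. Trap1 is the mitochondrial member of the HSP90 family. Lonp1 degrades misfolded and oxidized matrix proteins, and Clpx unfolds substrates for the peptidase Clpp. Yme1l1 and Afg3l2 are ATP-driven proteases of the inner membrane, facing the intermembrane space and the matrix, and Oma1 is a stress-activated inner membrane protease. Yme1l1 and Oma1 both cut Opa1, the dynamin-like protein that fuses inner membranes. The heart is rich in mitochondria, and cardiomyocytes hold most of them.

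Promoter windows, each 250 bases before to 50 bases after an annotated start, were read from RefSeq (GRCm38.p6) and matched 8 of the 10 members by symbol. The windows printed below belong to Lonp1, Trap1 and Yme1l1, the members that passed in a comparison, and to Hspe1 of the chaperonin pair, which passed in none. Each reads 5′ to 3′ along its gene, and capitals mark matches to the heat shock element or the cAMP response element defined in the next paragraph, of which the Yme1l1 window holds none. The windows are Hspe1 at chr1:55087898-55088197 on the plus strand, Lonp1 at chr17:56626854-56627153 on the minus strand, Trap1 at chr16:4077761-4078060 on the minus strand and Yme1l1 at chr2:23156255-23156554 on the plus strand.
Hspe1: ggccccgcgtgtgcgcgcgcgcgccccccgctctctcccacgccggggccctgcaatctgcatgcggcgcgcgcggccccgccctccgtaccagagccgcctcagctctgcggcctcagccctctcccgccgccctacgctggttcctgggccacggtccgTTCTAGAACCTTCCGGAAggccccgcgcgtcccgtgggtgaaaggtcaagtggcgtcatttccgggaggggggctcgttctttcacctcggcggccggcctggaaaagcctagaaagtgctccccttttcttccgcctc
Lonp1: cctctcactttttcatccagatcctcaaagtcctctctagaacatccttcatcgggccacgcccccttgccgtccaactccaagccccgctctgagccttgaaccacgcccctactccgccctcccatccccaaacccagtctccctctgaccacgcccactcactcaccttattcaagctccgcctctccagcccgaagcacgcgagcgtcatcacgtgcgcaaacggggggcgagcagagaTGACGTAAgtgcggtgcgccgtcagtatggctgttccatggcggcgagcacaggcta
Trap1: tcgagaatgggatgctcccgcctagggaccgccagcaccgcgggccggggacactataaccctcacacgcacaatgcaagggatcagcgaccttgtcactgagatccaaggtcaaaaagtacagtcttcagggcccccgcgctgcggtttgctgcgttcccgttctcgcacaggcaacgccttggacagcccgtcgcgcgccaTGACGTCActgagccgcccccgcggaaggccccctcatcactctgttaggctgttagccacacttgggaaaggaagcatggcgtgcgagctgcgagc
Yme1l1: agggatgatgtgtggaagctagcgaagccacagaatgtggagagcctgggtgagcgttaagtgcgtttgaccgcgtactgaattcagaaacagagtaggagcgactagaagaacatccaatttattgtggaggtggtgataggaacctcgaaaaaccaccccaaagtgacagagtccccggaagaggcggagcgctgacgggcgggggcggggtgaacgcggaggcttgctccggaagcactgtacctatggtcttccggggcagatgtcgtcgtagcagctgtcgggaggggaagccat

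Hspd1 and Hspe1 lie head to head, and 1 of the 2 Hspd1 windows (chr1:55087883-55088182, minus strand) shared 285 bases with the Hspe1 window. The capitals in that shared stretch, at position -89 from the Hspe1 start, form 2 cores TTCNNGAA with NN between them, a heat shock element of 4 units, which 5 of 32817 windows (0.0152%) held on either strand. Of these 5 windows, 2 are the overlapping Hspd1 and Hspe1 windows, which hold the same element. A single core TTCNNGAA, which lies inside the longer element, was found in the windows of Hspd1, Hspe1 and Clpp and in 8.51% of all windows. The cAMP response element TGACGTNA was found in Lonp1 (position -7) and Trap1 (position -47) and in 2.93% of all windows. TGATGNAA, a core of the amino acid response element read by Atf4 and its partners, was found in none of the 8 members and in 3.97% of windows. GCATGCGC, a core of the nuclear respiratory factor 1 site, was found in Clpx and in 2.71% of windows, GGGCGG in 7 members and 35.6% of windows, and CCAAT in 3 members and 37.4%. A match is a description of the letters, and the factors that read them were not measured.

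In the deposited table the members lie, on mm39, on chromosome 1 (Hspd1, 55116994 to 55127402, minus strand; Hspe1, 55127291 to 55130466, plus strand), 2 (Yme1l1, 23046381 to 23089272), 4 (Oma1, 103171009 to 103229065), 9 (Clpx, 65201542 to 65237940), 16 (Trap1, 3857835 to 3895691), 17 (Lonp1, 56921297 to 56933887; Clpp, 57297305 to 57303188) and 18 (Hspa9, 35070467 to 35087410; Afg3l2, 67537834 to 67582242). Hspd1 and Hspe1 overlap by 112 bases on opposite strands. The library kit was directional, but the sources used here do not say whether strand was used in counting, so reads of the overlap may be shared between them. Entries for 3 copies of members held few reads, with a highest value in any library of 108 for Hspd1-ps3, 62.9 for Hspd1-ps4 and 14.6 for Hspa9-ps1.

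Depth ran between 14.8 M and 60 M reads per library, with a median of 28.4 M (M for 1e6 reads). Values are normalized read counts, each a read count divided by 1 factor for the library and not by gene length, so levels are compared between groups and not between genes. In 4 libraries the median correlation with the other libraries of the group was under 0.95, namely cSirt4-Tg-TAC 4, cSirt4-Tg-TAC 6, Con-TAC-MQ 3 and Con-TAC 6. cSirt4-Tg-TAC 6 was closer to Con-TAC (median r = 0.958) than to its own group (0.926), and Con-TAC 6 was closer to cSirt4-Tg-TAC (0.949) than to its own group (0.932). Each library name holds a number that the sources used here do not explain (the name number). Every MitoQ library and Con-TAC 6 had the name number 20 or 21, and the number was 29 to 31 in cSirt4-Tg-TAC 6 and in 3 libraries of each sham group, and 7 to 14 in all others. Whether the labels of cSirt4-Tg-TAC 6 and Con-TAC 6 were exchanged was not tested.

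**Figure D1:**
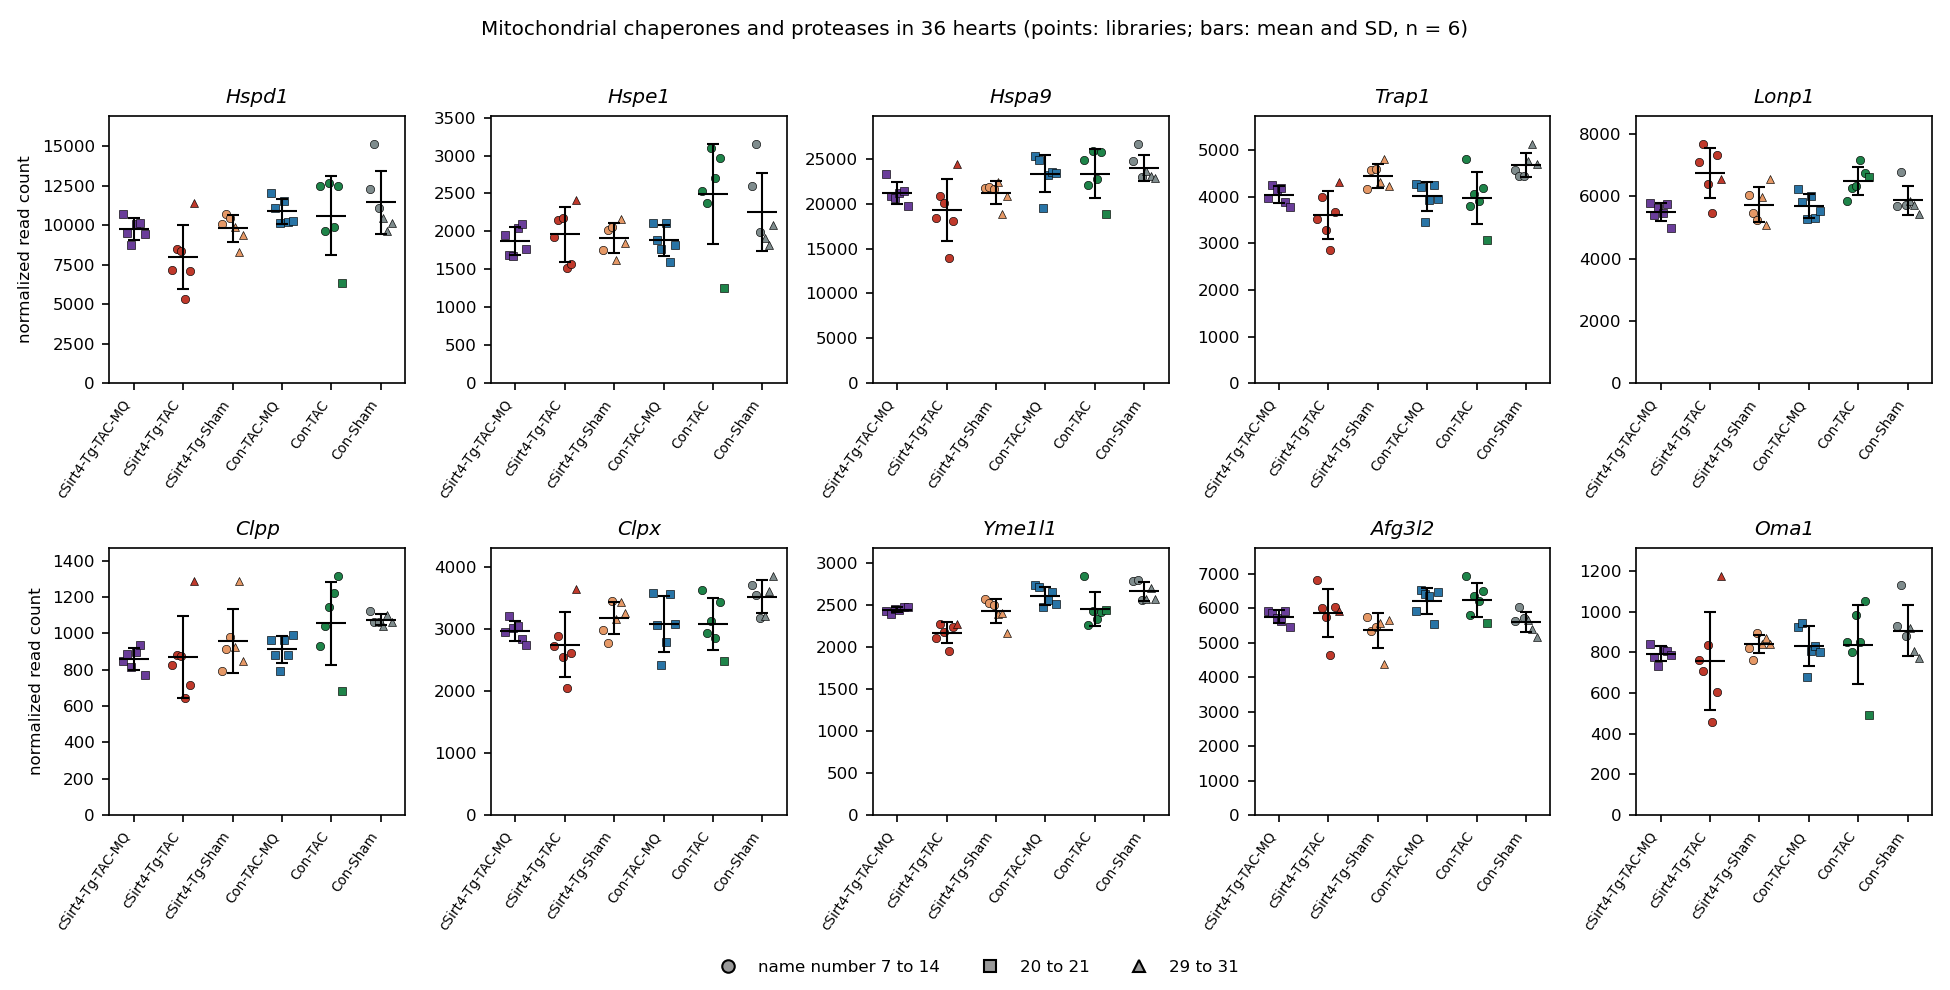
Normalized read count (vertical axes, linear, from 0) of each of the 10 members in the 6 groups (horizontal axes), with 1 point per library, its shape giving the class of the number in the library name, and bars for the mean and SD (n = 6). The cSirt4-Tg-TAC-MQ libraries of Yme1l1 sit between 2392 and 2476, above all cSirt4-Tg-TAC libraries, and in the panels of Hspd1, Hspa9, Clpp, Oma1 and Trap1 the cSirt4-Tg-TAC and Con-TAC groups have the widest ranges.

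TAC in cSirt4-Tg hearts went with more Lonp1 and with less Trap1 and Yme1l1, and MitoQ in cSirt4-Tg TAC hearts went with less Lonp1 and more Yme1l1. Yme1l1 was also lower in cSirt4-Tg-TAC than in Con-TAC. The changes were small, between 0.16 and 0.31 on the log2 scale in size. In cSirt4-Tg-TAC against cSirt4-Tg-Sham 3 of the 10 members passed the test (limma, adjusted p under 0.05 over all genes tested), where 16.7% of all genes did. In cSirt4-Tg-TAC against Con-TAC 1 member passed, where 6.48% of all genes did, and in cSirt4-Tg-TAC-MQ against cSirt4-Tg-TAC 2 passed, where 17.3% did. These shares of members are near the shares of all genes or rest on 1 gene, and the 3 comparisons use the same cSirt4-Tg-TAC libraries.

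No member passed by limma in Con-TAC against Con-Sham, where 5.3% of all genes passed and Yme1l1, Afg3l2 and Trap1 had an unadjusted p under 0.05. None passed in Con-TAC-MQ against Con-TAC (3.23% of all genes), where Hspe1 and Lonp1 had an unadjusted p under 0.05. None passed in cSirt4-Tg-Sham against Con-Sham (0.873%), where Yme1l1 alone had an unadjusted p under 0.05, or in cSirt4-Tg-TAC-MQ against Con-TAC-MQ (0.0737%), where no member did. edgeR and DESeq2 on the recovered reads called no members in these 4 comparisons. The response to TAC and the response to MitoQ were also compared between genotypes as differences of differences. No gene at all passed by limma or edgeR (0% of genes, with 949 and 1377 genes at an unadjusted p under 0.05), DESeq2 called 2 and 16 genes, and no member had an unadjusted p under 0.05 by limma. A change that passed in one genotype was therefore not shown to differ from that in the other.

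**Figure D2:**
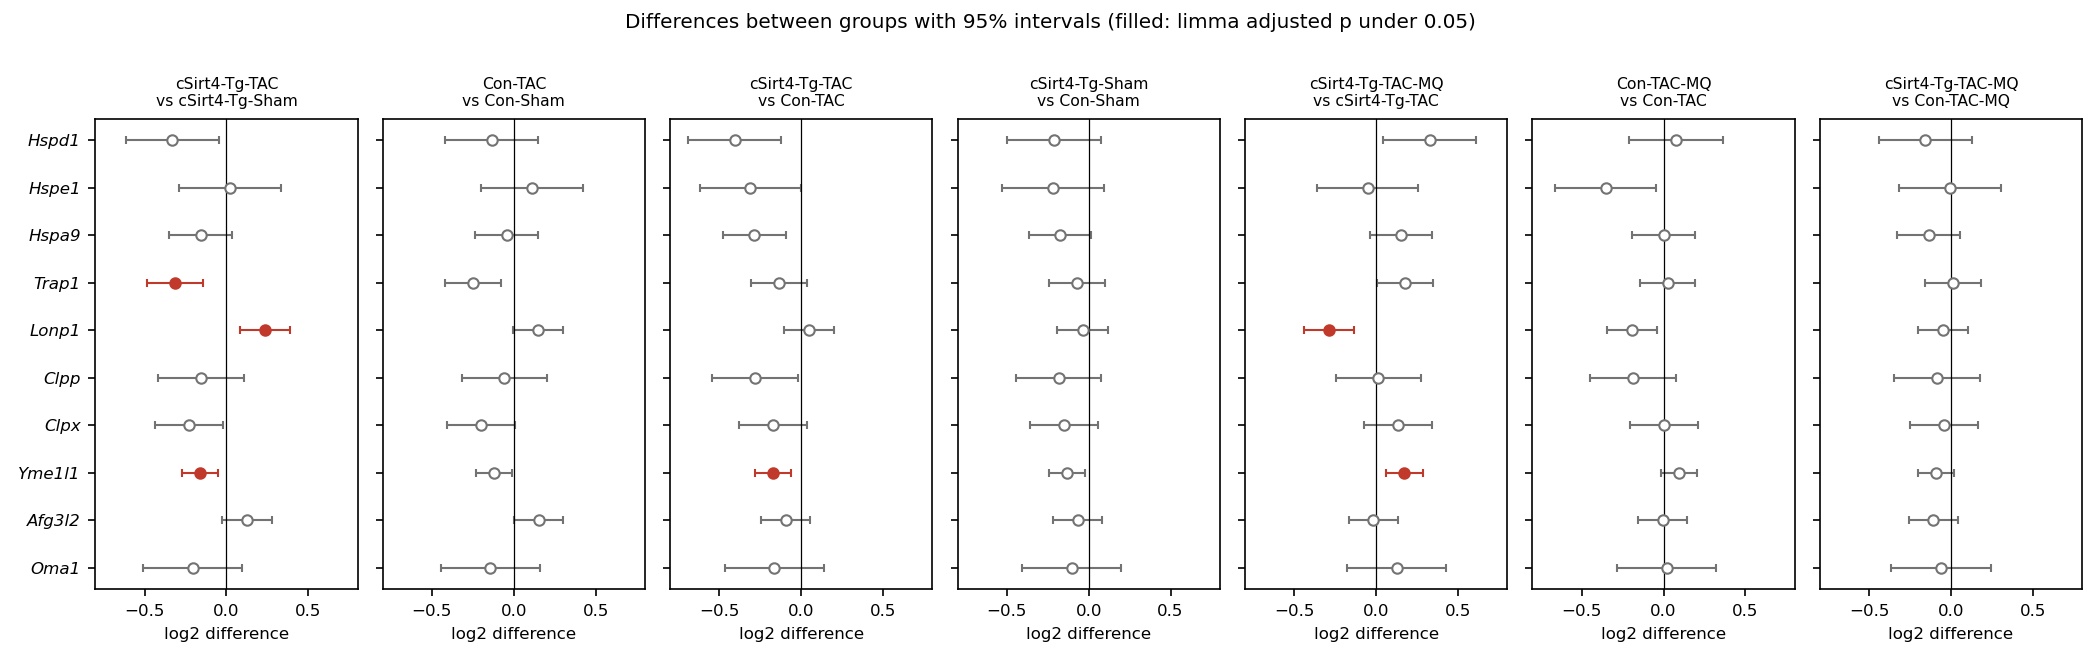
Difference in log2(value + 1) between 2 groups (horizontal axes) for the 10 members (listed down each panel) in the 7 comparisons (panels), with the 95% interval of the limma fit; filled points passed the test. In cSirt4-Tg-TAC against cSirt4-Tg-Sham the intervals of Lonp1, Trap1 and Yme1l1, which passed, and of Hspd1 and Clpx, which did not, lie clear of 0, and all 10 points lie below 0 in cSirt4-Tg-Sham against Con-Sham.

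Among the chaperones, Hspd1 had its lowest median in cSirt4-Tg-TAC and passed in no comparison. Its normalized read counts (lowest, median and highest library) were 8745, 9775 and 10705 in cSirt4-Tg-TAC-MQ, 5303, 7786 and 11443 in cSirt4-Tg-TAC, 8329, 9961 and 10704 in cSirt4-Tg-Sham, 10170, 10693 and 12035 in Con-TAC-MQ, 6321, 11212 and 12660 in Con-TAC, and 9623, 10779 and 15129 in Con-Sham. All of these ranges overlap within each pair compared. In cSirt4-Tg-TAC 5 of 6 libraries lay between 5303 and 8477 and cSirt4-Tg-TAC 6 stood at 11443, while in Con-TAC 5 of 6 lay between 9625 and 12660 and Con-TAC 6 stood at 6321. The log2 difference was -0.41 (SE 0.14, limma adjusted p = 0.0675) and negative in 5 of 6 libraries, between cSirt4-Tg-TAC and Con-TAC. It was -0.33 (limma adjusted p = 0.101) between cSirt4-Tg-TAC and cSirt4-Tg-Sham, and 0.33 (limma adjusted p = 0.103, higher in 6 of 6) between cSirt4-Tg-TAC-MQ and cSirt4-Tg-TAC. In the Control genotype the difference was 0.08 for MitoQ (95% interval -0.21 to 0.36) and -0.14 for TAC (-0.42 to 0.15).

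Hspe1, the lid of the chaperonin, had its highest median in Con-TAC and passed in no comparison. Its counts were 1671, 1863 and 2099 in cSirt4-Tg-TAC-MQ, 1518, 2040.1 and 2418 in cSirt4-Tg-TAC, 1625, 1939 and 2159 in cSirt4-Tg-Sham, 1597, 1857 and 2117 in Con-TAC-MQ, 1256, 2622 and 3094 in Con-TAC, and 1825, 2038 and 3148 in Con-Sham. In Con-TAC 5 libraries lay between 2379 and 3094, above every Con-TAC-MQ library, and Con-TAC 6 lay below all of them. The log2 difference was -0.35 (SE 0.15, limma adjusted p = 0.196, lower in 6 of 6) between Con-TAC-MQ and Con-TAC. Without Con-TAC 6 it was -0.54 (limma adjusted p = 0.00524), with 10.8% of all genes then called. It was -0.31 (limma adjusted p = 0.189) between cSirt4-Tg-TAC and Con-TAC, and 0.02 (95% interval -0.29 to 0.33) between cSirt4-Tg-TAC and cSirt4-Tg-Sham.

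The ratio of Hspd1 to Hspe1 counts within a library, a comparison chosen after its values were seen and given without a test, was higher with MitoQ in both genotypes. It was 4.82, 5.29 and 5.62 (lowest, median and highest) in cSirt4-Tg-TAC-MQ and 3.49, 3.90 and 4.73 in cSirt4-Tg-TAC. It was 5.47, 5.73 and 6.38 in Con-TAC-MQ and 3.66, 4.15 and 5.03 in Con-TAC. Neither pair of ranges overlaps, and the share of other gene pairs whose ratio separates these groups was not computed. In the sham groups it was 3.86, 5.18 and 6.07 in cSirt4-Tg-Sham and 4.72, 5.06 and 5.57 in Con-Sham. All MitoQ libraries carry the number 20 or 21 in their names and have a small share of reads on Rn18s-rs5, a ribosomal RNA locus (0.591% to 1.39%, against 1.55% to 11.8% in the TAC libraries with vehicle). MitoQ and that number cannot be told apart, and the part of the ribosomal share in the ratio was not tested. Con-TAC 6, the one vehicle library with the number 20, had the highest ratio of its group, 5.03. It is 1 library that stands apart from its group, and the part of the number in the ratio was not tested.

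Hspa9, the import motor, was lower in cSirt4-Tg than in Control under each treatment by its group mean, and no pair passed the test. Its counts were 19743, 21032 and 23330 in cSirt4-Tg-TAC-MQ, 13951, 19237 and 24453 in cSirt4-Tg-TAC, 18846, 21706 and 22480 in cSirt4-Tg-Sham, 19532, 23477 and 25380 in Con-TAC-MQ, 18820, 23784 and 25937 in Con-TAC, and 22900, 23334 and 26624 in Con-Sham. The sham ranges do not overlap, which held for 1.14% of all genes in this direction. The log2 difference was -0.29 (SE 0.09, limma adjusted p = 0.0574, lower in 5 of 6) between cSirt4-Tg-TAC and Con-TAC, -0.18 (limma adjusted p = 0.436, lower in 6 of 6) between the sham groups, and -0.14 (limma adjusted p = 1.00) between the MitoQ groups. DESeq2 on the recovered reads called Hspa9 (adjusted p = 0.0317) and Hspd1 (adjusted p = 0.0401) lower in cSirt4-Tg-TAC than in Con-TAC.

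Trap1, of the HSP90 family, fell with TAC in cSirt4-Tg hearts. Its counts were 3786, 4060.5 and 4259 in cSirt4-Tg-TAC-MQ, 2856, 3600.5 and 4303 in cSirt4-Tg-TAC, 4159, 4445 and 4807 in cSirt4-Tg-Sham, 3451, 4073 and 4277 in Con-TAC-MQ, 3072, 3979.6 and 4805 in Con-TAC, and 4446, 4639.5 and 5121 in Con-Sham. Of the cSirt4-Tg-TAC libraries 5 lay below every cSirt4-Tg-Sham library, and cSirt4-Tg-TAC 6 at 4303 lay inside the sham range. The mean was 3606 ± 511 in cSirt4-Tg-TAC and 4446 ± 252 in cSirt4-Tg-Sham (SD, n = 6 each; log2 difference -0.31, SE 0.08, limma adjusted p = 0.0113, lower in 6 of 6). This call was kept in each of the 12 fits that left out 1 library of either group, and it was lost where only those 12 libraries were fitted (adjusted p = 0.0784). In the Control genotype the difference was -0.25 (SE 0.08, limma adjusted p = 0.0718, lower in 5 of 6), and without Con-TAC 1, the highest library at 4805, the adjusted p was 0.0190. The TAC response of Trap1 differed between genotypes by -0.06 (95% interval -0.30 to 0.18). With MitoQ the difference was 0.18 in cSirt4-Tg (limma adjusted p = 0.144, higher in 6 of 6) and 0.02 in Control (limma adjusted p = 0.909).

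Among the matrix proteases, Lonp1 rose with TAC and fell with MitoQ in cSirt4-Tg hearts. Its counts were 4980, 5548 and 5779.7 in cSirt4-Tg-TAC-MQ, 5463, 6828 and 7671 in cSirt4-Tg-TAC, 5067, 5735 and 6556 in cSirt4-Tg-Sham, 5279, 5677 and 6243 in Con-TAC-MQ, 5863, 6474 and 7175 in Con-TAC, and 5446, 5732 and 6774 in Con-Sham. The sham and MitoQ groups have medians between 5548 and 5735, and both TAC groups with vehicle lie above them by their medians, with overlapping ranges. Between cSirt4-Tg-TAC-MQ and cSirt4-Tg-TAC the means were 5504 ± 295 and 6752 ± 791 (SD, n = 6 each; log2 difference -0.29, SE 0.08, limma adjusted p = 0.00875, lower in 6 of 6). That call was kept without any 1 library of either group. It was lost when libraries were scaled to equal totals of nuclear genes (-0.19, adjusted p = 0.0903) and with name number class as a covariate (-0.33, adjusted p = 0.177). That covariate separates MitoQ from the name number through Con-TAC 6 alone. Under it the MitoQ differences in cSirt4-Tg were 1.16 for Hspd1 (adjusted p = 0.00381), 1.05 for Hspe1 (0.00615), 1.02 for Oma1 (0.0124), 0.77 for Clpp (0.0221) and 0.62 for Trap1 (0.00815), against 0.33, -0.05, 0.12, 0.01 and 0.18 without it. In Control under it, Hspe1 was at 0.58 (adjusted p = 0.179), against -0.35 without it.

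Between cSirt4-Tg-TAC and cSirt4-Tg-Sham the log2 difference of Lonp1 was 0.23 (SE 0.08, limma adjusted p = 0.0311, higher in 5 of 6). cSirt4-Tg-TAC 4, the shallowest library, was the one below the sham mean. The call was lost without cSirt4-Tg-TAC 1, 2 or 5 or cSirt4-Tg-Sham 2, 3 or 5, with adjusted p-values of 0.0594 to 0.0825, among the libraries numbered 7 to 14 (0.27, adjusted p = 0.0960), with name number class as a covariate (adjusted p = 0.0549) and where only the 12 libraries of both groups were fitted (adjusted p = 0.172). In the Control genotype the differences were 0.15 for TAC (limma adjusted p = 0.243, higher in 6 of 6) and -0.19 for MitoQ (limma adjusted p = 0.154, lower in 6 of 6). The genotypes differed by 0.09 in the TAC response (95% interval -0.13 to 0.30) and by -0.10 in the MitoQ response (-0.31 to 0.12).

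Clpp and Clpx, the peptidase and the unfoldase of the other matrix protease, passed in no comparison. Clpp counts were 645, 849 and 1288 in cSirt4-Tg-TAC, 793, 920 and 1290 in cSirt4-Tg-Sham, 683, 1093 and 1315 in Con-TAC, and 1038, 1064 and 1124 in Con-Sham. The Con-Sham libraries lie close together, while those of both vehicle TAC groups spread over about the same wide range. The cSirt4-Tg-Sham libraries also spread widely, with cSirt4-Tg-Sham 5 at the top and the next library at 980. The log2 difference between cSirt4-Tg-TAC and Con-TAC was -0.28 (SE 0.13, limma adjusted p = 0.157, lower in 5 of 6). In cSirt4-Tg-TAC-MQ Clpp counts were 773 to 939 and in Con-TAC-MQ 792 to 993, with MitoQ differences of 0.01 in cSirt4-Tg (95% interval -0.25 to 0.28) and -0.18 in Control (-0.45 to 0.08). Clpx counts were 2053, 2676 and 3649 in cSirt4-Tg-TAC, 2772, 3219 and 3453 in cSirt4-Tg-Sham, 2491, 3031 and 3639.6 in Con-TAC, and 3182, 3587 and 3854 in Con-Sham. Its TAC difference was -0.23 in cSirt4-Tg (limma adjusted p = 0.121, lower in 5 of 6) and -0.20 in Control (limma adjusted p = 0.236, lower in 5 of 6). The ratio of Clpx to Clpp within a library overlapped between the groups of every pair, with medians of 2.78 to 3.52.

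Among the inner membrane proteases, Yme1l1 passed in 3 comparisons and had the smallest standard error of the members in the fit. Its counts were 2392, 2444 and 2476 in cSirt4-Tg-TAC-MQ, 1953, 2205 and 2277 in cSirt4-Tg-TAC, 2170.2, 2456 and 2566 in cSirt4-Tg-Sham, 2478, 2602 and 2732 in Con-TAC-MQ, 2259, 2421 and 2840.3 in Con-TAC, and 2557, 2636 and 2793 in Con-Sham. Every cSirt4-Tg-TAC-MQ library lies above every cSirt4-Tg-TAC library, which held for 3.66% of all genes in this direction, and below every Con-TAC-MQ library, which held for 0.307%. The mean was 2443 ± 31.3 in cSirt4-Tg-TAC-MQ and 2169.6 ± 124 in cSirt4-Tg-TAC (SD, n = 6 each; log2 difference 0.17, SE 0.05, limma adjusted p = 0.0251). It rose with MitoQ also without any 1 library other than cSirt4-Tg-TAC 1 (adjusted p = 0.0527) or cSirt4-Tg-TAC 4 (adjusted p = 0.0736). The difference stayed at 0.17 with name number class as a covariate (adjusted p = 0.336), without the filter on low values (0.0584) and with only the 12 libraries of both groups (0.0521).

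Yme1l1 was lower in cSirt4-Tg-TAC than in cSirt4-Tg-Sham (log2 difference -0.16, SE 0.05, limma adjusted p = 0.0368, lower in 6 of 6) and than in Con-TAC (-0.17, SE 0.05, limma adjusted p = 0.0471, lower in 6 of 6). Both calls lie close to the threshold. The first was lost without cSirt4-Tg-TAC 1, 3, 4 or 5 or cSirt4-Tg-Sham 1, 2, 3 or 4 (adjusted p 0.0511 to 0.109), and the second without cSirt4-Tg-TAC 1, 3, 4 or 5 or Con-TAC 1, 3 or 5 (0.0696 to 0.152). With libraries scaled to equal totals of nuclear genes neither passed (adjusted p = 0.192 and 0.125), nor without the filter on low values (0.0793 and 0.0922), nor with only the 12 libraries of both groups (0.182 and 0.309). Among the libraries numbered 7 to 14 the differences were -0.24 (adjusted p = 0.0588) and -0.19 (adjusted p = 0.0652). In the sham and MitoQ pairs the genotype difference was -0.13 (limma adjusted p = 0.265, lower in 6 of 6) and -0.09 (limma adjusted p = 1.00, lower in 6 of 6). In Con-TAC against Con-Sham it was -0.12 (limma adjusted p = 0.174, lower in 5 of 6), and without Con-TAC 1, whose 2840.3 is the highest Yme1l1 value of all libraries, the adjusted p was 0.0393.

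Afg3l2, the matrix-facing inner membrane protease, had its lowest medians in the sham groups. Its counts were 5471, 5793 and 5938 in cSirt4-Tg-TAC-MQ, 4642, 5973 and 6832 in cSirt4-Tg-TAC, 4379, 5532 and 5741 in cSirt4-Tg-Sham, 5557, 6396 and 6524 in Con-TAC-MQ, 5590.3, 6291 and 6937 in Con-TAC, and 5180, 5658 and 6034 in Con-Sham. The ranges overlap in every pair. The TAC difference was 0.12 in cSirt4-Tg (limma adjusted p = 0.247, higher in 5 of 6) and 0.15 in Control (limma adjusted p = 0.219, higher in 5 of 6).

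Relative to Yme1l1, Afg3l2 stood higher after TAC with vehicle. The ratio of Afg3l2 to Yme1l1 within a library, also chosen after its values were seen and given without a test, was 2.38, 2.65 and 3.24 in cSirt4-Tg-TAC and 1.82, 2.21 and 2.61 in cSirt4-Tg-Sham. It was 2.30, 2.59 and 2.70 in Con-TAC and 2.00, 2.10 and 2.24 in Con-Sham. The Control ranges do not overlap, and the cSirt4-Tg ranges do. The share of other gene pairs whose ratio separates the Control groups was not computed. With MitoQ the ratio was 2.22, 2.36 and 2.46 in cSirt4-Tg-TAC-MQ and 2.10, 2.45 and 2.59 in Con-TAC-MQ.

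Oma1, the stress-activated protease, passed in no comparison and spread most widely in the TAC groups with vehicle. Its counts were 735, 796 and 844 in cSirt4-Tg-TAC-MQ, 456, 736 and 1175 in cSirt4-Tg-TAC, 763, 843 and 893 in cSirt4-Tg-Sham, 677, 819.6 and 945 in Con-TAC-MQ, 490.2, 851 and 1051 in Con-TAC, and 774, 901 and 1132 in Con-Sham. Libraries that stand apart lie at the ends, cSirt4-Tg-TAC 4 at the bottom and cSirt4-Tg-TAC 6 at the top of their group and Con-TAC 6 at the bottom of its own. The TAC difference was -0.21 in cSirt4-Tg (95% interval -0.51 to 0.10) and -0.14 in Control (-0.45 to 0.16). The ratio of Oma1 to Yme1l1 within a library overlapped between the groups of every pair, with medians of 0.317 to 0.360.

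In the order of group means, few neighbours stood clear of each other: of 50 neighbouring pairs of means over the 10 members, 5 differed by more than the larger SD of the pair. In cSirt4-Tg-Sham against Con-Sham all 10 members had a negative log2 difference, with a median of -0.14, where all genes tested had a median of 0.00 and 49.8% were negative. With libraries scaled to equal totals of nuclear genes 3 of the 10 turned positive, with array weights 1 did, and without Con-Sham 2 1 did. In cSirt4-Tg-TAC against Con-TAC 9 of 10 were negative (median -0.17, all genes 0.00), Lonp1 being the exception, and none of them changed sign under the other settings tried.

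The comparison of cSirt4-Tg-TAC with Con-TAC depended on which libraries were fitted. With all libraries 1 member was called lower, where 3.29% of all genes were. Without cSirt4-Tg-TAC 6 there were 5 (Yme1l1, Hspd1, Hspa9, Clpp and Clpx), with 11.4% of all genes called lower. Without Con-TAC 6 there were also 5 (Yme1l1, Hspd1, Hspe1, Hspa9 and Clpp), with 8.9% of all genes called lower. Among the libraries numbered 7 to 14, 5 of each group, which leaves out both, there were 7, with 12.3% of all genes called lower. Hspd1 then differed by -0.66 (limma adjusted p = 0.0013), Hspe1 by -0.56 (0.00394), Clpp by -0.52 (0.00206), Oma1 by -0.45 (0.0221), Hspa9 by -0.42 (0.00572), Clpx by -0.32 (0.0259) and Trap1 by -0.26 (0.0380). The differences of the called chaperones and matrix proteases were thus larger within this class than over all libraries, and the share of all genes called was larger as well.

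Without all 4 libraries that stand apart, a setting chosen after the data were seen, 8 members were lower in cSirt4-Tg-TAC than in Con-TAC, with 12.6% of all genes called lower. Leaving out the least alike libraries narrows the spread by construction. Without cSirt4-Tg-TAC 6 alone, 5 members passed in cSirt4-Tg-TAC against cSirt4-Tg-Sham, with Hspd1 (-0.44, limma adjusted p = 0.0131) and Clpx (-0.31, limma adjusted p = 0.0142) lower beside the 3 named above and 28.3% of all genes called. In that comparison the setting without the 4 libraries gave 5 members (Hspd1, Clpx and Trap1 lower, Lonp1 and Afg3l2 higher, with Yme1l1 at adjusted p = 0.0570) and 28.7% of all genes. In Con-TAC against Con-Sham the setting without the 4 libraries gave Trap1 (-0.18, limma adjusted p = 0.0432) and 14.5% of all genes, and in Con-TAC-MQ against Con-TAC Hspe1 (-0.52, limma adjusted p = 0.00438) and 15.6%. In cSirt4-Tg-TAC-MQ against cSirt4-Tg-TAC it gave 3 members, with Hspd1 higher (0.33, limma adjusted p = 0.0134) beside Lonp1 and Yme1l1, and 28.6% of all genes. Without cSirt4-Tg-TAC 6 alone, 4 members passed there, with Hspd1 (0.44, limma adjusted p = 0.0146) and Trap1 (0.23, limma adjusted p = 0.0382) higher and 27.3% of all genes called.

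**Figure D3:**
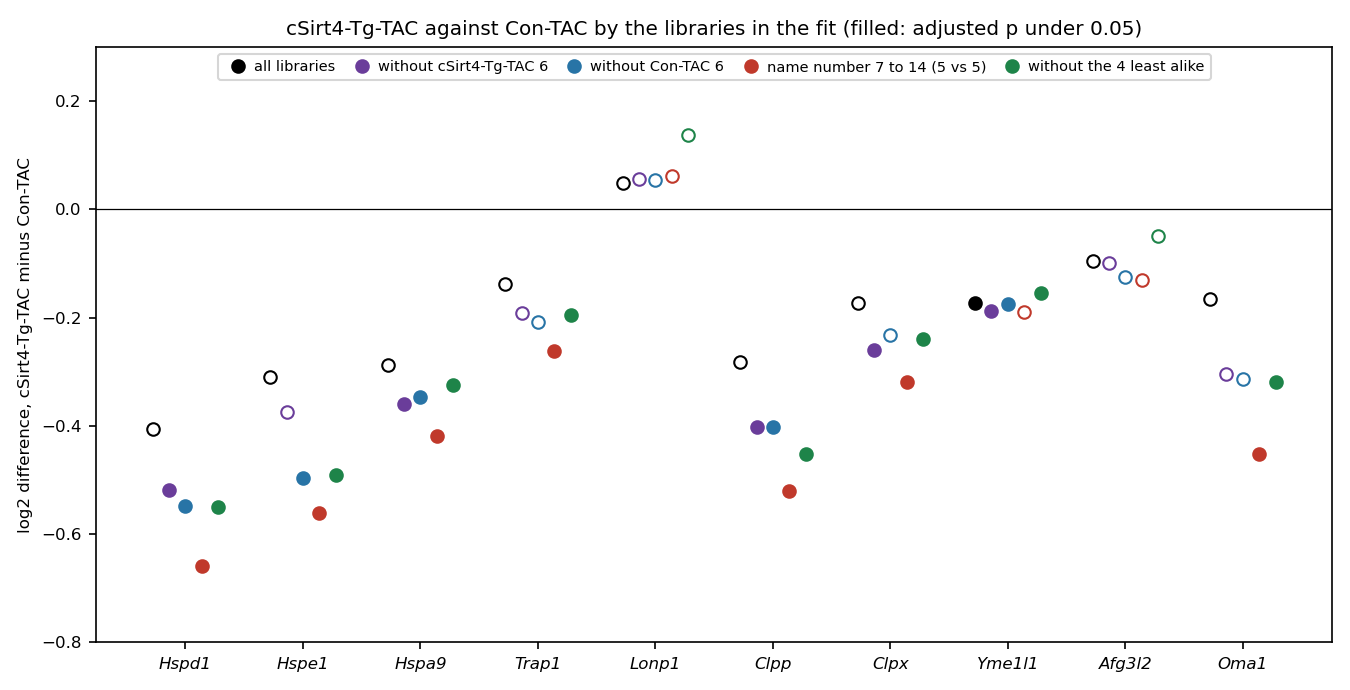
Difference in log2(value + 1), cSirt4-Tg-TAC minus Con-TAC (vertical axis), for each member (horizontal axis) in 5 fits that differ in the libraries they use; filled points had a limma adjusted p under 0.05. Hspd1 moves down to -0.66 from -0.41 when only libraries numbered 7 to 14 are fitted, while Lonp1 stays above 0 and Yme1l1 stays between -0.20 and -0.13 in all 5.

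Of the 10 members 7 varied with the level of cardiomyocyte markers in the libraries, a count that has no share of all genes beside it. In whole hearts, fewer cells of a type and less RNA per cell cannot be told apart. The summed normalized read count of 12 cardiomyocyte markers was 1955500 to 2105200 in cSirt4-Tg-TAC-MQ, 1158500 to 2770900 in cSirt4-Tg-TAC, 2230500 to 2444000 in cSirt4-Tg-Sham, 1500100 to 2582600 in Con-TAC-MQ, 1375900 to 2754800 in Con-TAC, and it was 2536500 to 2929600 in Con-Sham. The vehicle TAC groups have the widest ranges, as they do for Hspd1, Hspa9, Clpp, Oma1 and Trap1. Of the 12, 4 were called lower and none higher in cSirt4-Tg-TAC against cSirt4-Tg-Sham, 2 lower and none higher in cSirt4-Tg-TAC against Con-TAC, and 2 higher and none lower in cSirt4-Tg-TAC-MQ against cSirt4-Tg-TAC. Of all genes, 16.7%, 6.48% and 17.3% were called in these 3 pairs, in that order and in either direction. Of 12 fibroblast markers, 6 were higher in the first of these pairs, 3 higher in the second and 4 lower in the MitoQ pair, with none called the other way. Their summed level was 88177 to 106630 in cSirt4-Tg-TAC-MQ, 76958 to 181430 in cSirt4-Tg-TAC, 72024 to 101940 in cSirt4-Tg-Sham, 48256 to 135570 in Con-TAC-MQ, 57855 to 112120 in Con-TAC, and it was 52483 to 59928 in Con-Sham. Of 12 macrophage markers, 7 were higher in cSirt4-Tg-Sham than in Con-Sham and 6 higher in cSirt4-Tg-TAC than in Con-TAC, with none lower in either. In the sham pair 0.873% of all genes were called. Of 8 smooth muscle and pericyte markers, 3 were higher in cSirt4-Tg-TAC than in cSirt4-Tg-Sham, 2 higher in cSirt4-Tg-TAC than in Con-TAC and 1 lower in cSirt4-Tg-TAC-MQ than in cSirt4-Tg-TAC. In Con-TAC against Con-Sham 3 of 12 fibroblast and 5 of 6 erythroid markers were higher, where 5.3% of all genes were called. The adipocyte markers summed to 37675 in cSirt4-Tg-TAC 4. The part of these levels in the results on the members was not tested.

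Library by library within groups, 7 members tracked the cardiomyocyte markers. The share of all genes that track them in this way was not computed, so whether the count is particular to the members is not known. Each value was taken as log2 minus its group mean, over 36 libraries, with 100000 permutations within groups and Benjamini-Hochberg adjustment over 55 relations (10 with the markers and 45 between members). Pearson's r with the marker mean was 0.92 for Oma1 (Spearman's rho 0.68), 0.91 for Hspa9 (0.76), 0.83 for Hspd1 (0.72), 0.81 for Clpx (0.57), Clpp (0.70) and Trap1 (0.63), and 0.73 for Hspe1 (0.75). The adjusted permutation p-values of these r were 4.23e-05 to 0.000344 and those of rho were 9.17e-05 to 0.00254. Without cSirt4-Tg-TAC 4 and cSirt4-Tg-TAC 6, the farthest on the marker axis, these r were 0.69 to 0.86. Within the libraries numbered 7 to 14 (n = 16) they were 0.72 to 0.93, within 20 to 21 (n = 13) 0.76 to 0.94 and within 29 to 31 (n = 7) 0.78 to 0.97. These class values keep the centring on whole groups. Each class holds libraries that stand apart, cSirt4-Tg-TAC 4 in the first, Con-TAC-MQ 3 and Con-TAC 6 in the second and cSirt4-Tg-TAC 6 in the third. A small class may rest on such a library, and r within a class without them was not computed.

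For the other 3 members the relation with the markers did not pass. Yme1l1 had r = 0.42 (rho 0.38, adjusted permutation p = 0.0640 and 0.0614), Afg3l2 r = 0.40 (rho 0.26, 0.117 and 0.218) and Lonp1 r = 0.28 (rho 0.13, 0.265 and 0.572). Without the 2 farthest libraries they were 0.25, 0.22 and 0.14. Between members the highest r were those of Hspd1 with Hspa9 (0.90, rho 0.90), Hspd1 with Oma1 (0.88, rho 0.67), Hspa9 with Oma1 (0.88, rho 0.70), Hspd1 with Hspe1 (0.84, rho 0.74) and Clpx with Trap1 (0.84, rho 0.75), each with an adjusted permutation p of 4.23e-05 for r. The unadjusted p of these r was 1e-05, the smallest that 100000 permutations can give.

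**Figure D4:**
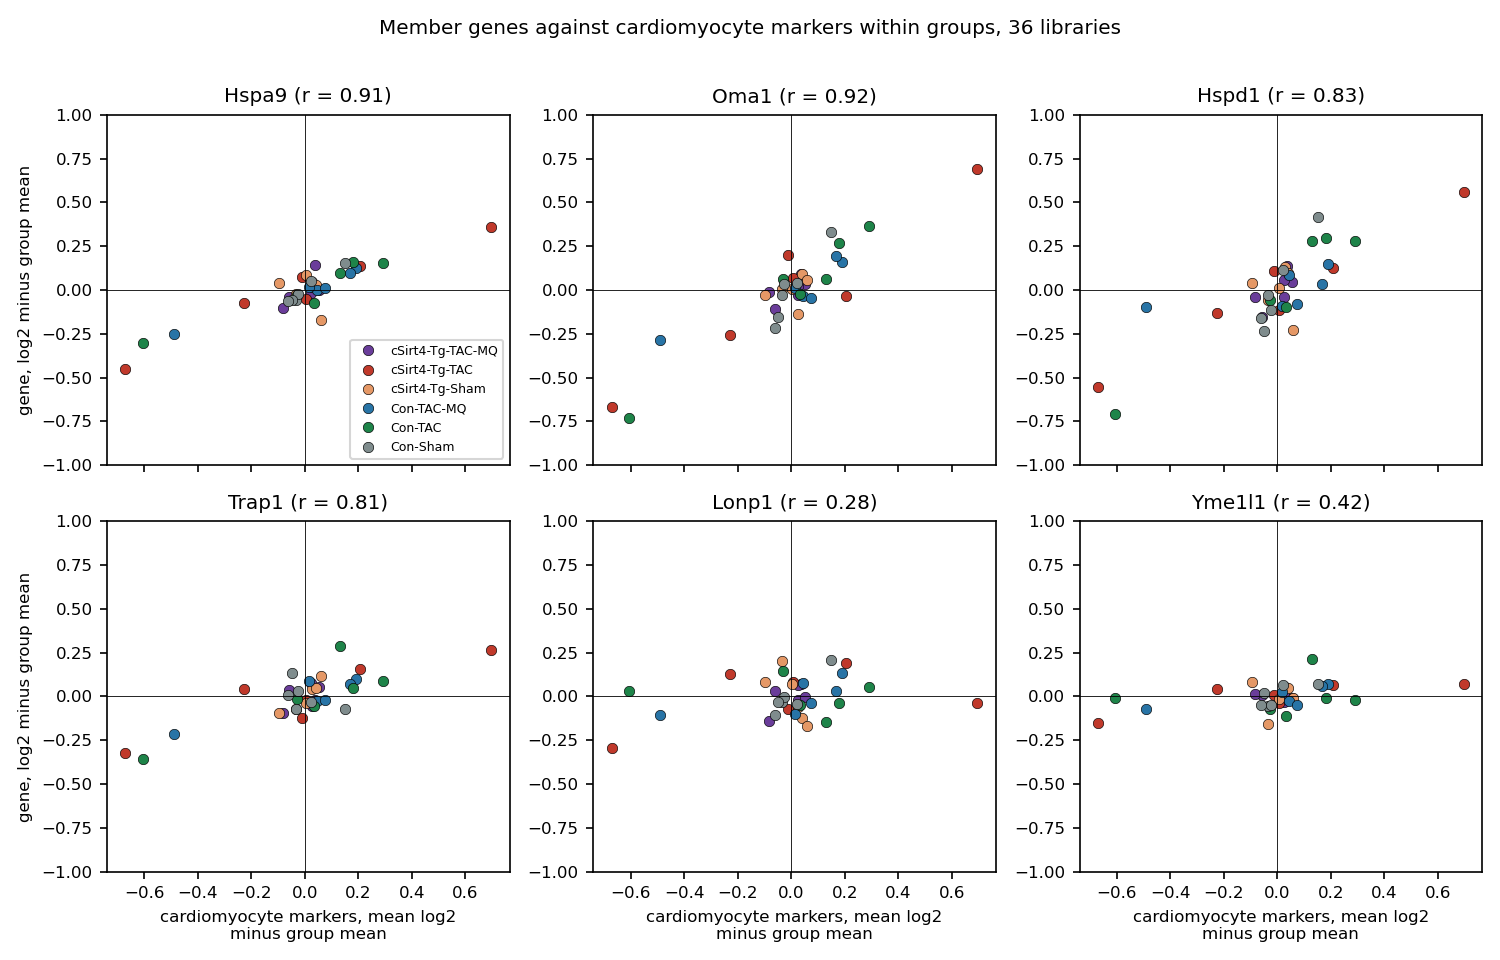
Level of 6 members (vertical axes, log2 minus the group mean) against the mean log2 level of 12 cardiomyocyte markers minus its group mean (horizontal axes), with 1 point per library coloured by group and Pearson's r in each title. Hspa9 and Oma1 follow the markers (r = 0.91 and 0.92), the points of Lonp1 and Yme1l1 are more scattered (r = 0.28 and 0.42), and cSirt4-Tg-TAC 4, the lowest on the marker axis, is the lowest of its group for all 6 members.

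The genes most like each member over the 36 libraries, by Pearson's r of log2 values and without a test, were in part other mitochondrial genes. Hspa9 was closest to Etfdh and Dlst (r = 0.95 each) and Dlat (0.94), which encode an electron transfer dehydrogenase and subunits of matrix dehydrogenase complexes. Clpp was closest to Ndufs4 (0.94), Ndufs8 and Uqcrq (0.93 each), subunits of respiratory complexes I and III. Oma1 was closest to Mtfp1 (0.93), an inner membrane fission protein, Mrpl37 (0.93), of the mitochondrial ribosome, and Ak1 (0.92). Hspe1 was closest to Ahsa1 (0.89), a co-chaperone of cytosolic HSP90, and to Gadd45gip1 and Mrpl38 (0.88 each), of the mitochondrial ribosome. Trap1 was closest to Calcoco1 and Mrpl39 (0.92 each), Clpx to Atp5b, a subunit of ATP synthase (0.91), and Hspd1 to Unc45b, a myosin chaperone, Hspa9 and Cpt2 (0.92 each), a fatty acid importer. The highest r was lower for Yme1l1 (Ccdc47, 0.88), Lonp1 (Ensa, 0.85) and Afg3l2 (Trim72, 0.74). The 36 libraries share groups, depth differences and tissue makeup, so these values describe likeness over all of them together.

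The genes around the members were counted from 6 lists, none of them tested as a set. Of all genes, limma called 16.7% with TAC in cSirt4-Tg, 5.3% with TAC in Control and 6.48% in cSirt4-Tg-TAC against Con-TAC. It called 17.3% with MitoQ in cSirt4-Tg, 3.23% with MitoQ in Control and 0.873% in cSirt4-Tg-Sham against Con-Sham. Of 17 tested genes of mitochondrial stress signalling, 4 rose and 1 fell in cSirt4-Tg-TAC against cSirt4-Tg-Sham, 1 rose and 1 fell in cSirt4-Tg-TAC against Con-TAC, and 4 fell with MitoQ in cSirt4-Tg, with none called by limma in the other 4 pairs. Atf4, the transcription factor at the centre of the integrated stress response, was 1638, 2443 and 2948 (lowest, median and highest library) in cSirt4-Tg-TAC and 1379.6, 1555 and 1817 in cSirt4-Tg-Sham. Of the cSirt4-Tg-TAC libraries 5 lie above the sham range, and cSirt4-Tg-TAC 6 lies inside it. The log2 difference was 0.58 (SE 0.13, limma adjusted p = 0.00387, higher in 6 of 6), and with MitoQ it was -0.56 (SE 0.13, limma adjusted p = 0.00368, lower in 6 of 6). Both calls were kept without any 1 library, and the MitoQ call was lost with name number class as a covariate (-0.61, adjusted p = 0.107). Of the MitoQ calls in cSirt4-Tg given in the next paragraphs, that covariate also ended those of Opa1 (0.66, adjusted p = 0.0662), Dnm1l (0.30, 0.156), Prelid1 (-0.88, 0.0817), Xpnpep3 (0.33, 0.167) and Htra2 (-0.0011, 0.997), and in Control that of Xpnpep3 (0.41, 0.129).

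Atf5, the factor linked to the mitochondrial unfolded protein response, was 918 to 1299.7 in cSirt4-Tg-TAC-MQ and 1319 to 2718 in cSirt4-Tg-TAC, without overlap. It fell with MitoQ in cSirt4-Tg (log2 difference -0.63, SE 0.15, limma adjusted p = 0.00431) and rose with TAC in cSirt4-Tg (0.52, limma adjusted p = 0.0166, higher in 6 of 6; adjusted p = 0.0643 without cSirt4-Tg-TAC 4). Asns, an amino acid synthesis target of Atf4, was higher in cSirt4-Tg-TAC than in cSirt4-Tg-Sham (0.65, limma adjusted p = 0.0236; lost without cSirt4-Tg-Sham 3 or cSirt4-Tg-TAC 4). The chaperones Hspd1, Hspe1 and Hspa9, often used as readouts of the mitochondrial unfolded protein response, passed in neither of these pairs. In cSirt4-Tg, Hspd1 differed by -0.33 with TAC and 0.33 with MitoQ, Hspe1 by 0.02 and -0.05, and Hspa9 by -0.16 and 0.15. Lonp1 moved in the same direction as Atf4 and Atf5 in both pairs, which share the cSirt4-Tg-TAC libraries.

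**Figure D5:**
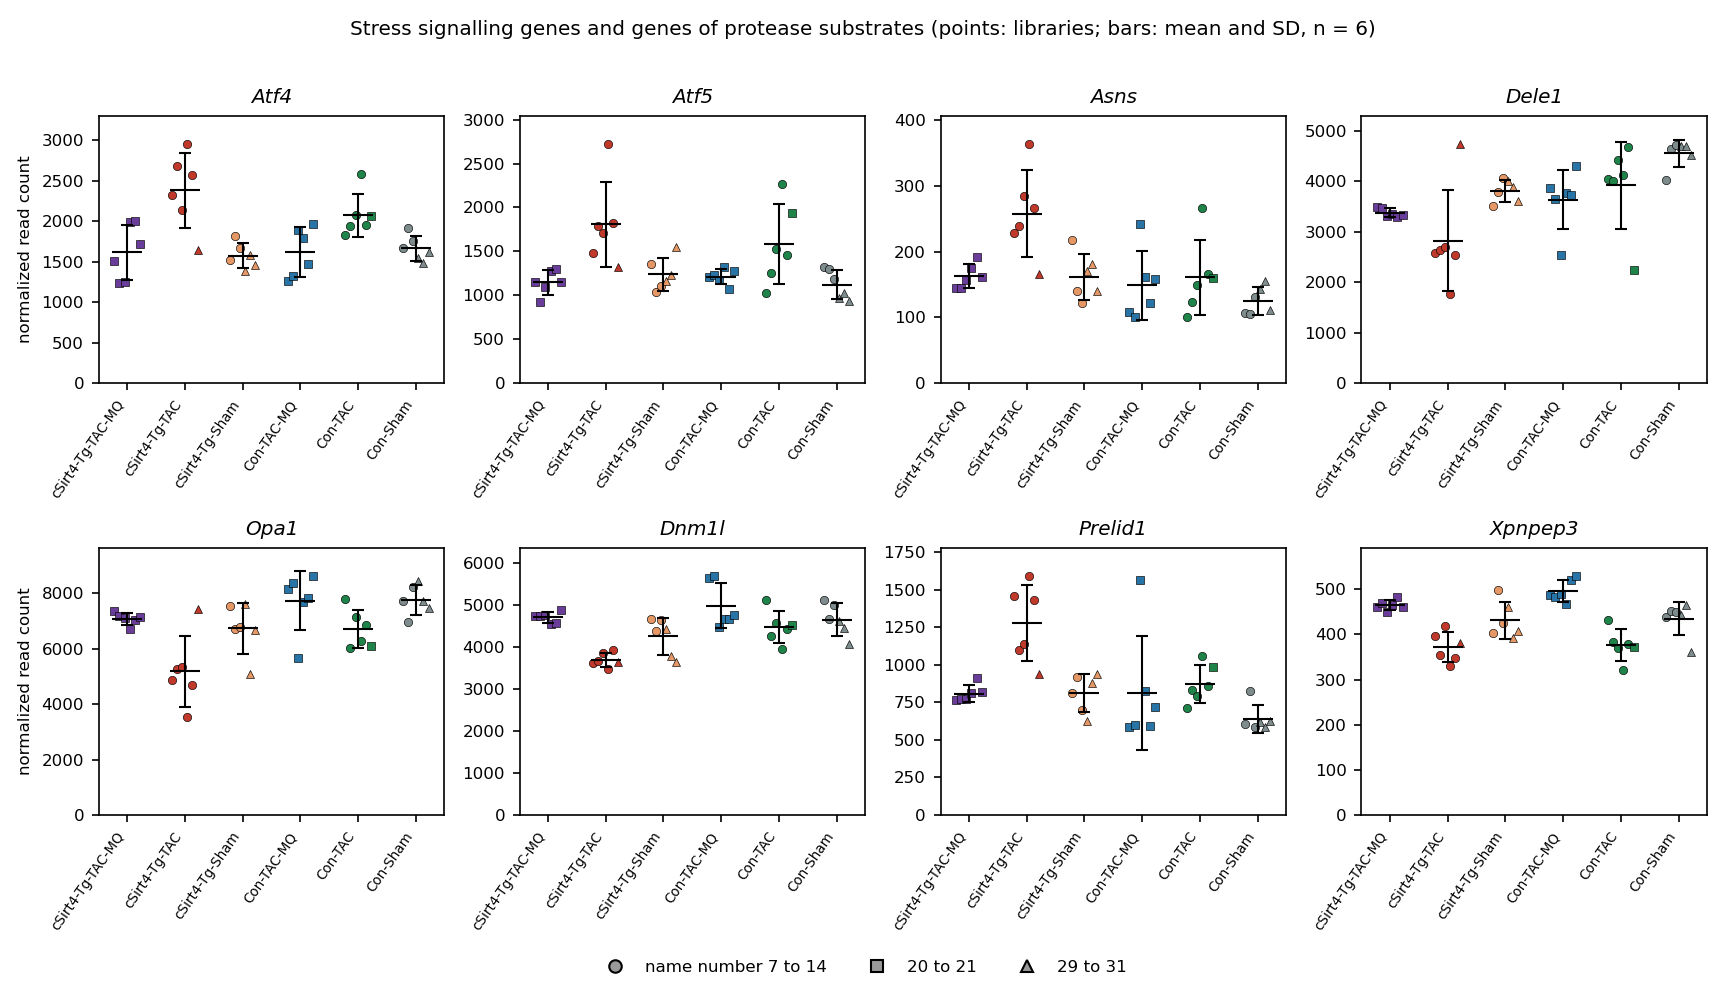
Normalized read count (vertical axes, linear, from 0) of 4 stress signalling genes (top) and of Opa1, Dnm1l, Prelid1 and the protease gene Xpnpep3 (bottom) in the 6 groups, with 1 point per library, its shape giving the class of the name number, and bars for the mean and SD (n = 6). The Atf5 libraries of cSirt4-Tg-TAC-MQ all lie below those of cSirt4-Tg-TAC, and the Dnm1l libraries of cSirt4-Tg-TAC-MQ all lie above them.

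The genes of known substrates of these proteases and of mitochondrial shape (16 tested) moved in both directions. With TAC in cSirt4-Tg 3 rose and 5 fell, between cSirt4-Tg-TAC and Con-TAC 1 was higher and 3 lower, and with MitoQ 4 rose and 3 fell in cSirt4-Tg and 1 fell in Control. Opa1, the substrate of Yme1l1 and Oma1, was 6692 to 7337 in cSirt4-Tg-TAC-MQ and 3521 to 7426 in cSirt4-Tg-TAC, where cSirt4-Tg-TAC 6 is the highest. It rose with MitoQ (log2 difference 0.48, SE 0.12, limma adjusted p = 0.00448, higher in 6 of 6). It fell with TAC in cSirt4-Tg (-0.40, limma adjusted p = 0.0174, lower in 5 of 6; adjusted p = 0.0678 without cSirt4-Tg-TAC 4). Dnm1l, the fission dynamin, rose with MitoQ (0.35, SE 0.07, limma adjusted p = 0.0017, higher in 6 of 6 without overlap). Prelid1, a lipid carrier of the intermembrane space that Yme1l1 degrades, rose with TAC in cSirt4-Tg (0.64, SE 0.16, limma adjusted p = 0.00826, no overlap) and fell with MitoQ (-0.64, SE 0.16, limma adjusted p = 0.00751, no overlap). At the level of transcripts, Prelid1 moved opposite to Yme1l1 in both pairs, and Opa1 moved with Yme1l1. Both pairs use the same cSirt4-Tg-TAC libraries, and a link between protease and substrate was not tested.

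Of 18 tested genes of other mitochondrial proteases and their scaffolds, 3 fell with TAC in cSirt4-Tg, 1 was higher and 1 lower in cSirt4-Tg-TAC against Con-TAC, 1 rose and 1 fell with MitoQ in cSirt4-Tg, 1 rose with MitoQ in Control, and 1 was lower in cSirt4-Tg-Sham than in Con-Sham. Xpnpep3, an aminopeptidase that trims imported proteins, rose with MitoQ in both genotypes, by 0.33 in cSirt4-Tg (SE 0.07, limma adjusted p = 0.00327) and by 0.40 in Control (SE 0.07, limma adjusted p = 0.00391). Its counts were 449.6 to 483 in cSirt4-Tg-TAC-MQ and 331 to 419 in cSirt4-Tg-TAC, and 467 to 529 in Con-TAC-MQ and 320.4 to 431 in Con-TAC, without overlap in either pair. Con-TAC 6, which shares the number 20 with MitoQ libraries, was at 372, inside the range of the other Con-TAC libraries. It is 1 library that stands apart from its group, and MitoQ and the number cannot be told apart. Htra2, an intermembrane space protease, fell with MitoQ in cSirt4-Tg (-0.30, limma adjusted p = 0.0134, no overlap). Immp2l, an inner membrane peptidase, was lower in cSirt4-Tg-Sham than in Con-Sham (-0.89, SE 0.19, limma adjusted p = 0.0183, no overlap; lost without Con-Sham 2, cSirt4-Tg-Sham 4 or cSirt4-Tg-Sham 6).

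Of the co-chaperones and import machinery (24 tested) 1 gene passed in each of 3 comparisons: Tomm22 rose in Con-TAC, Dnaja3, the J protein partner of Hspa9, was lower in cSirt4-Tg-TAC than in Con-TAC (-0.39, limma adjusted p = 0.0398, lower in 6 of 6), and Dnlz fell with MitoQ in cSirt4-Tg. Each of these 3 calls was lost in at least 8 of the 12 fits that left out 1 library. In Con-TAC-MQ against Con-TAC none passed, and 23 of 24 were negative with a median of -0.21 (all genes 0.01). In the cytosol, 3 of 16 heat shock genes rose with TAC in Control (Hspb7, Hspb8 and Hspb6), Hspa4 rose with TAC in cSirt4-Tg and Hspa4l rose with MitoQ in cSirt4-Tg. With TAC in Control all 16 had a positive difference, with a median of 0.47 (all genes 0.01). Hspb7, a small heat shock protein of muscle, rose by 0.59 (SE 0.12, limma adjusted p = 0.00774, no overlap) in Con-TAC. Hspd1 (-0.14) and Hspe1 (0.11, higher in 5 of 6) did not pass there. With array weights Hspe1 did (0.33, limma adjusted p = 0.0411). Among the libraries numbered 7 to 14 (5 and 3) the Hspb7 difference was 0.56 (adjusted p = 0.125).

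Of 22 tested genes of general mitochondrial content, 5 fell and none rose with TAC in cSirt4-Tg, where 16.7% of all genes were called. In cSirt4-Tg-TAC 1 was lower than in Con-TAC (6.48% of all genes called), and 3 rose and none fell with MitoQ in cSirt4-Tg (17.3%). The list was not tested as a set. Sdha, a complex II subunit, fell by 0.66 on the log2 scale (SE 0.16, limma adjusted p = 0.00566, lower in 5 of 6) with TAC in cSirt4-Tg, and Cs, citrate synthase, fell by 0.46 (limma adjusted p = 0.0109) and rose by 0.46 with MitoQ (limma adjusted p = 0.00928; 1.03 and 0.00475 with name number class as a covariate). The median log2 difference over this list was -0.29 with TAC in cSirt4-Tg, against -0.16 over the 10 members and -0.01 over all genes. Of the 3 members called in that pair, Trap1 and Yme1l1 moved in the direction of these content genes and Lonp1 in the other, and of all 10 members 7 had a negative difference.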

How the data were processed

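Per the labels' protocols, total RNA from snap-frozen whole hearts was made into directional libraries with the NEBNext Ultra II Directional kit. Trim Galore and STAR were used with mm39, per the submitters' processing notes. The sources used here do not give the read counter, its strand setting or the normalization tool. The deposited values are signal values, namely read counts that the authors divided by 1 factor per library: all (100%) came out as whole reads within 0.01 read.

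Values were tested as log2(value + 1) with limma 3.58.1 (R 4.3.3, trend and robust), 1 mean per group over 36 libraries, 30 residual degrees of freedom and Benjamini-Hochberg adjustment over the 16275 genes that reached 10 in 6 or more libraries. A difference was called at an adjusted p under 0.05. "Higher in 6 of 6" counts libraries of the first-named group beyond the mean of the other. edgeR 4.0.16 and DESeq2 1.42.0 were run on the recovered reads as alternatives, and the fits were tested on simulated data. Nothing in the labels says that libraries of a group come from separate litters or cages, so p-values measure the spread between single hearts. That spread was estimated once per gene over all 36 libraries, so a limma p-value does not measure the spread within only the groups compared. Replicate numbers did not pair libraries across groups (correlations of same-numbered libraries from -0.48 to 0.31 over 42 pairs), and no library was a copy of another (r 0.874 to 0.990 within groups).

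All 10 members are named. Other genes were taken from up to 3 called genes per list and comparison, those with the smallest adjusted p, and from the 3 genes most like each member, and not all of these are printed. Members, lists and tests were chosen with earlier results of these data known. The ratios and the setting without 4 libraries were added after the data were seen.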

Additional observations from a re-analysis of the deposited data

Results flagged for a closer look

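In 5 of the 60 combinations of a member and a group, 1 library lay far from the other 5, with a gap to the nearest library above Dixon's 95% critical value of 0.625 of the group's range for 6 libraries. Chance gives about 1 in 20. Hspa9 was lowest in Con-TAC-MQ 3, at 19532 normalized read counts against 23234 for the next library (gap 0.633 of the range). Clpp was highest in cSirt4-Tg-TAC 6, at 1288 against 881 for the next (0.633). Both are libraries with a low correlation to their own group. Lonp1 was highest in Con-Sham 2, at 6774 against 5848 (0.697). Yme1l1 was highest in Con-TAC 1, at 2840.3 against 2433 (0.701), and Afg3l2 was lowest in cSirt4-Tg-Sham 5, at 4379 against 5350.4 (0.713).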

How the results depend on the processing

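Over 7 comparisons of 2 groups and 2 differences of differences, 2427 values of single members under other settings kept their side of the threshold, of which 121 changed sign without being called. The largest of those was 0.35 in size by the main settings. 42 values lost the call, 70 gained one and 1 reversed with a call: Hspe1 with MitoQ in cSirt4-Tg, 1.05 with name number class as a covariate (main -0.05). That covariate separates MitoQ from the number through Con-TAC 6 alone, and the cause of the other changes was not tested. The number of all genes called stands in brackets after each count of members. Members called in Con-TAC against Con-Sham numbered 0 (863 genes), but 2 with libraries scaled to equal nuclear totals (1109), 5 with array weights (3157) and 1 without the 4 libraries that stand apart (2356). In cSirt4-Tg-TAC against cSirt4-Tg-Sham they numbered 3 (2716), but 0 with only the libraries compared (712), 6 with array weights (4926) and 5 without the 4 libraries (4679). In cSirt4-Tg-TAC against Con-TAC they numbered 1 (1054), but 0 without a filter (620), with equal nuclear totals (826), with only the libraries compared (1 gene) and with the replicate block (771). They numbered 2 with a minimum of 50 (1142), 3 by DESeq2 (1752), 5 with array weights (3707), 6 with the class covariate (3316), 7 within numbers 7 to 14 (4103) and 8 without the 4 libraries (4229). With MitoQ in Control they numbered 0 (526), but 2 with array weights (2870) and 1 without the 4 libraries (2533). With MitoQ in cSirt4-Tg they numbered 2 (2821), but 1 without a filter (2317) and with only the libraries compared (2213), 4 with equal nuclear totals (3287) and with array weights (5761), and 5 with the class covariate (2551). Leaving out 1 library gave 0 to 2, 1 to 5, 0 to 5, 0 to 1 and 1 to 4 members in these 5 comparisons, in the order given. Scaling to equal nuclear totals shifted the all-gene median by 0.10 in Con-TAC against Con-Sham and with MitoQ in cSirt4-Tg, where 83.6% and 85.2% of calls were then higher. The replicate block changed no other call. Counts of reads behind the members are lowest for Oma1 in cSirt4-Tg-TAC 4, at 254 reads.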
